A study of Mus musculus with 18 samples.

Results

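Goblet cells are the mucus-secreting cells of the intestinal lining, and 10 of their marker genes were followed here in sorted mouse intestinal stem cells with and without Dlg1. The 10 genes were taken as a named list, Muc2, Tff3, Agr2, Clca1, Fcgbp, Zg16, Spink4, Spdef, Ramp1 and Sytl2, and each matched 1 of the 43432 gene identifiers in the count tables by its mouse symbol. The series asked which genes differ when Dlg1, a scaffold protein of epithelial polarity, is deleted from these stem cells. RNA of 5000 to 10000 sorted cells per library was captured by its poly(A) tail, amplified with a SmartSeq kit, made into Nextera XT libraries and sequenced. There were 4 groups, all from mice aged 8 to 16 weeks and all after tamoxifen, the drug used to start the deletion, so that the wild-type mice had received it too. They were Dlg1 conditional knock-out (4 libraries) and wild type (4 libraries) at 2 days, given as 48 hours in the labels, and Dlg1 conditional knock-out (5 libraries) and wild type (5 libraries) at 14 days. The labels used here give neither the Cre driver, the strain and sex of the mice, nor the surface marker or reporter that was sorted on, and they do not say whether each library came from a separate animal. P-values therefore measure only the spread between these libraries, which may be technical. The columns of the 2 day knock-out carry a name that was read as Dlg1 minus, and every comparison at 2 days rests on that reading.

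Goblet cells arise from stem cells of the crypt through secretory precursors in which Notch signalling is low and the transcription factor Atoh1 is active, and Spdef then drives their maturation. They store and release the gel-forming mucin Muc2 together with proteins that crosslink, process or protect the mucus. In a sorted stem cell fraction the transcripts of these genes can come from goblet cells, from their precursors or from low expression in the stem cells. In bulk RNA a change in the number of goblet cells and a change in RNA per cell cannot be told apart.

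Promoter windows of 300 bases, 250 before to 50 after the start of transcription, were found for 5 of the 10 genes in RefSeq sequence of the GRCm38.p6 build, the build of the counts. The windows of Muc2, Fcgbp, Spdef and Agr2 are printed because they stand for a mucin, a mucus crosslinker, the maturation factor and a secretory chaperone. Capitals mark matches on either strand to 4 short motifs. These were CAGCTG, an E-box of the kind bound by basic helix-loop-helix factors such as Atoh1, TGTTTA, a core of forkhead sites, TATAAA, the usual TATA box, and ACGTG, a core of sites bound by the secretory stress factor Xbp1.
Muc2, chr7:141690090-141690389, plus strand: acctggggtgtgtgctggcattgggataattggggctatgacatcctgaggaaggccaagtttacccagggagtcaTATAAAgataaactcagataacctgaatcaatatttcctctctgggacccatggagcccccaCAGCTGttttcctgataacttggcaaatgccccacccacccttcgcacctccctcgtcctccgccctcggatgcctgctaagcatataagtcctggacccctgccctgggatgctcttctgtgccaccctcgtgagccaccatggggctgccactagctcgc
Fcgbp, chr7:28070986-28071285, plus strand: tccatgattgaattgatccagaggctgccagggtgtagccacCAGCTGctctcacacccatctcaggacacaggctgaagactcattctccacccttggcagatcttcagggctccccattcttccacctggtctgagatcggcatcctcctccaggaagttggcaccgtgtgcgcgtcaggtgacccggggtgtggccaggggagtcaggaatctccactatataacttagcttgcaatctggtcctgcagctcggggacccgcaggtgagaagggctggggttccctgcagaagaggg
Spdef, chr17:27728902-27729201, minus strand: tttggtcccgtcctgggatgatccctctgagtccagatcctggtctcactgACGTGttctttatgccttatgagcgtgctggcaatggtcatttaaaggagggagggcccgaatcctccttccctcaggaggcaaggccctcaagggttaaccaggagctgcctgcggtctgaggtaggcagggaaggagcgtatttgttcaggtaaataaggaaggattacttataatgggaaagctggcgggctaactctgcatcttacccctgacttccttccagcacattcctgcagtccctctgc
Agr2, chr12:35992675-35992974, plus strand: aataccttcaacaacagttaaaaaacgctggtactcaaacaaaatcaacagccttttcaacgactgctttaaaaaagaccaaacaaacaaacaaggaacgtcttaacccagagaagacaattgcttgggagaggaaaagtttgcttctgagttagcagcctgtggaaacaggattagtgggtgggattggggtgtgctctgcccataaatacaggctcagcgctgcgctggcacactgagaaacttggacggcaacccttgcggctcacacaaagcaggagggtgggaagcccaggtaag
The Muc2 window held TATAAA from base -174 to -169 and CAGCTG from -112 to -107, counted from the start of transcription. The Fcgbp window held CAGCTG from -208 to -203, and the Spdef window held ACGTG from -199 to -195. The windows of Agr2 and Ramp1 held none of the 4 motifs, and no matches overlapped. Among all 32851 promoter windows of the same length, 16.3% held CAGCTG, 13.4% held TGTTTA, 13.6% held TATAAA and 19.6% held ACGTG, so a match in 1 window is a frequent event and is given as a description.

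Libraries at 2 days held 15.7 to 38.4 M counts in knock-out and 14.8 to 40.5 M in wild type, and those at 14 days held 11.1 to 13.5 M in knock-out and 12.6 to 15.7 M in wild type. Dlg1 itself ranged from 45.6 to 68.4 CPM (counts per M counts, with libraries scaled by TMM) in knock-out and from 57.1 to 82.4 CPM in wild type at 2 days. At 14 days it ranged from 36.9 to 85.5 CPM in knock-out and from 54.0 to 75.1 CPM in wild type. The groups overlapped at both times, and because counts over the whole gene include exons outside a deletion, they do not check it. The stem cell marker Lgr5 averaged 199.1 ± 48.6 CPM in knock-out, against 262.8 ± 75.6 CPM in wild type at 2 days (SD, n = 4 each). At 14 days it averaged 73.3 ± 17.2 CPM in knock-out, against 70.3 ± 16.0 CPM in wild type (SD, n = 5 each), so a defining marker of the labelled cells was present in every group. A pair of 14 day libraries stood apart in mitochondrial share. Knock-out library 1 and wild-type library 3 had 24.2% and 26.3% of their counts on mitochondrially encoded genes, against 6.21% to 17.8% in the other 8. Knock-out library 5 of 14 days and wild-type library 1 of 2 days had the lowest TMM factors of their times, 0.746 and 0.576, where the next lowest were 0.931 and 0.793. Libraries are numbered within their group by their place in the table, and the numbers pair nothing.

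The 10 goblet cell genes together took 0.0507% to 0.127% of the counts of a knock-out library and 0.0354% to 0.0755% of a wild-type library at 2 days. At 14 days they took 0.249% to 1.24% in knock-out and 0.191% to 0.542% in wild type. Their summed level at 2 days had a median of 1022 CPM in knock-out (range 585.7 to 1596) and 745.3 CPM in wild type (range 613.8 to 818.4). At 14 days the median was 3691 CPM in knock-out (range 1900 to 12700) and 2089 CPM in wild type (range 1380 to 5834). The genotypes overlapped at each time, while every 14 day library lay above every wild-type library of 2 days.

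**Figure D1:**
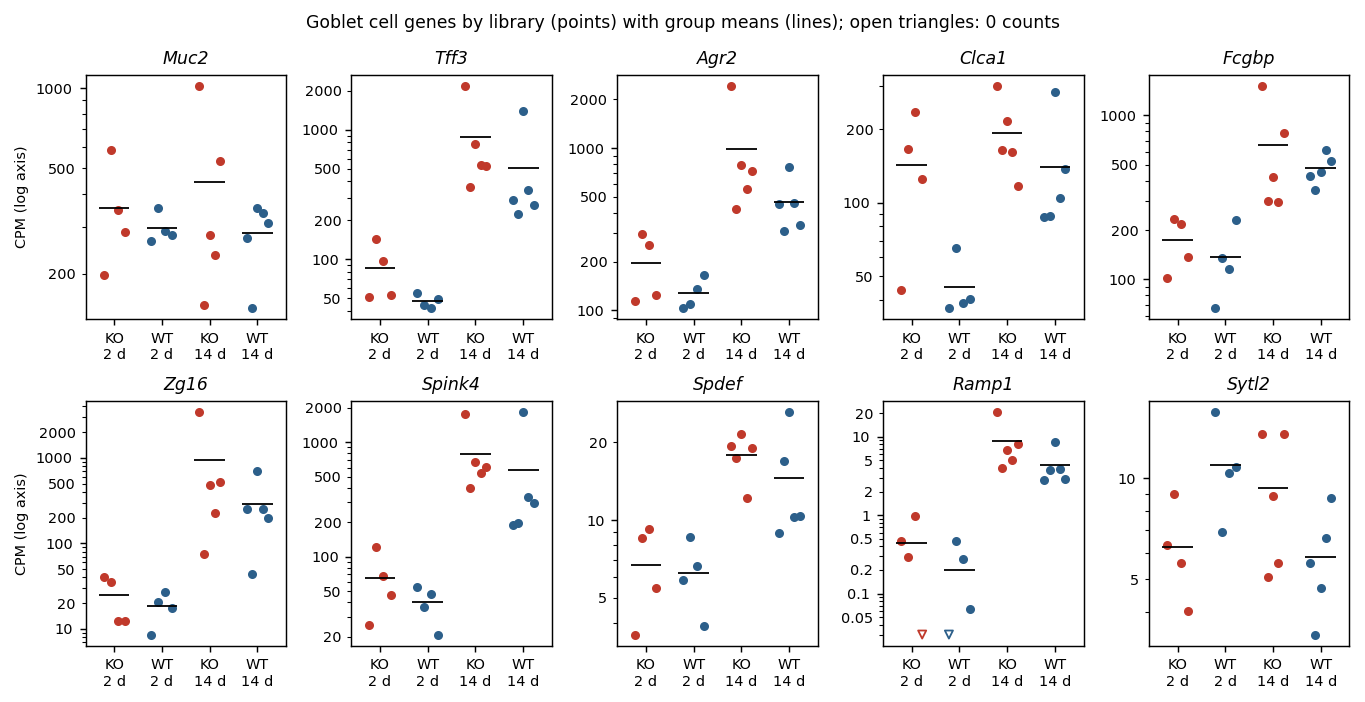
Level of each goblet cell gene in every library, in CPM on a log axis, for knock-out (KO, red) and wild type (WT, blue) at 2 and 14 days. Points are libraries in table order, lines are arithmetic group means and open triangles mark libraries with 0 counts, drawn at the foot of the axis. Knock-out and wild-type points overlap for every gene at both times. Of the 10 genes, 8 lie higher in the 14 day than in the 2 day wild-type libraries with no overlap, as did 22.4% of all genes. Ramp1, with 0 to 8 counts at 2 days in wild type, is among the 8. It passed the filter only through the 14 day libraries, so that it had to differ.

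At 2 days the fitted levels of the mucus genes were mostly above wild type in knock-out, led by Clca1, and no gene of the 10 passed the test. Of the 9 genes tested, 8 had a positive log2 fold change (knock-out over wild type), with a median of 0.47, where 51% of all 13031 genes tested were positive, with a median of 0.01. Ramp1 had 0 to 15 counts per library at this time and failed the filter on low counts. The edgeR quasi-likelihood test, adjusted by Benjamini-Hochberg, called 0 of the 9 genes, and 0 of all genes (0%), at an adjusted p under 0.05. At an unadjusted p under 0.05 the same test had 640 genes of all tested, while DESeq2 called 13 genes after adjustment and limma voom 0. Of the goblet cell genes, Clca1 and Tff3 were higher and Sytl2 lower at an unadjusted p under 0.05, against 2.72% of all genes higher and 2.19% lower. No gene of the 9 had groups that did not overlap, where 2% of all genes did so with knock-out above and 1.93% with knock-out below.

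Muc2 (ENSMUSG00000025515, chromosome 7, 141690340 to 141754693, plus strand, GRCm38), the mucin that forms the gel, had 197.6, 582.9, 348 and 288 CPM in knock-out libraries 1 to 4, against 267, 354, 289 and 280 CPM in wild-type libraries 1 to 4. Knock-out libraries were both the lowest and the highest of the 8, and the groups overlapped throughout. The fitted log2 fold change was 0.26, with 0.27 as its standard error (SE), and it was -0.09 without knock-out library 2. Fcgbp (ENSMUSG00000047730, chromosome 7, 28071236 to 28120862, plus strand), a large protein that crosslinks to Muc2 in the mucus, ranged from 102.6 to 234.3 CPM in knock-out and from 66.9 to 230.5 CPM in wild type. In log2 the fold change was 0.34 (SE 0.35), within the spread of the libraries.

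Clca1 (ENSMUSG00000028255, chromosome 3, 145003817 to 145032776, minus strand), a secreted metalloprotease that processes Muc2 in the mucus, had 43.9, 166.6, 235.4 and 125.4 CPM in knock-out libraries 1 to 4. In wild-type libraries 1 to 4 it had 37.0, 65.3, 38.8 and 40.3 CPM. Knock-out libraries 2, 3 and 4 lay above every wild-type library, and knock-out library 1 lay within the wild-type range. The means were 142.8 ± 80.0 CPM in knock-out, against 45.3 ± 13.4 CPM in wild type (SD, n = 4 each), giving a log2 fold change of 1.66 with an SE of 0.40. Its unadjusted p was 0.00129, and its Benjamini-Hochberg adjusted p in the edgeR quasi-likelihood test was 0.866. DESeq2 gave a log2 fold change of 1.65 with an adjusted p of 0.0213, as 1 of its 13 calls among 12461 genes (0.104%). Over all the alternatives that kept every library, the adjusted p of Clca1 ranged from 0.0213 to 0.862.

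Tff3 (ENSMUSG00000024029, chromosome 17, 31125306 to 31129646, minus strand), a trefoil peptide that aids repair of the lining, had 51.6, 143.7, 97.4 and 53.6 CPM in knock-out libraries 1 to 4, against 55.0, 44.2, 42.0 and 49.9 CPM in wild-type libraries 1 to 4. Knock-out libraries 2 and 3 lay above wild type, and libraries 1 and 4 within its range. The log2 fold change was 0.86 (SE 0.30), with an unadjusted p of 0.0134. Spink4 (ENSMUSG00000028415, chromosome 4, 40920052 to 40931395, plus strand), a secreted peptide of the Kazal protease inhibitor family, ranged from 25.3 to 120.7 CPM in knock-out and from 20.9 to 54.9 CPM in wild type, a log2 fold change of 0.71 (SE 0.42). Zg16 (ENSMUSG00000049350, chromosome 7, 127050156 to 127087328, minus strand), a lectin that binds Gram-positive bacteria, ranged from 12.3 to 40.5 CPM in knock-out and from 8.57 to 27.0 CPM in wild type, a log2 fold change of 0.46 (SE 0.44). Both overlapped between genotypes.

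Agr2 (ENSMUSG00000020581, chromosome 12, 35992907 to 36004087, plus strand), a disulfide isomerase of the endoplasmic reticulum needed to make Muc2, had 113.8, 294.9, 254 and 124 CPM in knock-out libraries 1 to 4, against 103.0, 109, 135 and 164.6 CPM in wild-type libraries 1 to 4. As for Tff3, knock-out libraries 2 and 3 were the highest of the 8. Its log2 fold change was 0.63 (SE 0.30). Spdef (ENSMUSG00000024215, chromosome 17, 27714352 to 27728955, minus strand), the ETS factor of goblet cell maturation, had 3.6 to 9.25 CPM in knock-out, against 3.90 to 8.57 CPM in wild type. The log2 fold change of 0.11 (SE 0.41) was smaller than its error, and it was -0.10 without knock-out library 3.

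Sytl2 (ENSMUSG00000030616, chromosome 7, 90302252 to 90410719, plus strand), a Rab27 effector that tethers secretory granules at the plasma membrane, was the 1 gene of the 9 with a negative value. It had 6.33, 8.97, 5.58 and 4.02 CPM in knock-out libraries 1 to 4, against 15.8, 6.94, 10.3 and 10.8 CPM in wild-type libraries 1 to 4. Knock-out library 2 lay above wild-type library 2, and the other 3 knock-out libraries lay below all of wild type. The log2 fold change was -0.81 (SE 0.36), with an unadjusted p of 0.0437 and a Benjamini-Hochberg adjusted p of 0.866 in the edgeR quasi-likelihood test.

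The median at 2 days fell most when knock-out library 2 or wild-type library 1 was left out. Knock-out library 2 was the highest of the 8 libraries for 5 of the 10 genes, and knock-out library 3 for 3, while wild-type library 1 was the lowest for 4. Without knock-out library 2 the log2 fold change was positive in 6 of 9 genes, with a median of 0.21, and without wild-type library 1 it was positive in 8 of 9, with a median of 0.22. Clca1 was still at 1.57 without knock-out library 2. Wild-type library 1 had the highest mitochondrial share of the series, 49.1%, and knock-out library 2 had 39.8%.

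Markers of other cell types differed between the same libraries at 2 days. The 20 enterocyte markers, which mark absorptive cells, summed to 2684 to 8392 CPM in knock-out, against 2677 to 3362 CPM in wild type, and 19 of 20 had a positive log2 fold change, with a median of 1.22 and 10 of them at an unadjusted p under 0.05. The highest enterocyte sum, 8392 CPM, was in knock-out library 1, which had the lowest goblet cell sum of the 8. The 20 Paneth cell markers summed to 1123 to 2980 CPM in knock-out, against 348.9 to 4354 CPM in wild type, the 14 tuft cell markers to 17.5 to 90.8 CPM in knock-out and 11.6 to 41.1 in wild type, and the 15 enteroendocrine markers to 41.2 to 427.4 CPM in knock-out and 119.7 to 208.9 in wild type. The 15 immune markers summed to 494.1 to 914.3 CPM in knock-out, against 408.7 to 1198 CPM in wild type, and the 15 stromal and endothelial markers to 8.40 to 29.3 CPM in knock-out, against 13.1 to 21.2 CPM in wild type. In both genotypes 1 gene made up most of the immune sum, and only 5 of the 15 immune markers passed the filter on low counts. The 15 stem cell markers summed to 5937 to 6867 CPM in knock-out, against 6982 to 7667 CPM in wild type, with no overlap. Such a sum follows its highest genes, and no share of all genes can be set beside it. Gene by gene, 5 of the 15 had a positive log2 fold change, with a median of -0.14. At an unadjusted p under 0.05 in the edgeR test, 0 were higher and 0 lower. Markers listed at 0 in a whole group were the Paneth defensin Defa23 in both genotypes, the tuft genes Gnat3 and Il25 in wild type, the enteroendocrine hormones Pyy and Nts in wild type, and 4 of the stromal and endothelial genes in each genotype, Col6a1 and Cdh5 among them. The part of these differences in the goblet cell values was not tested.

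At 14 days all 10 goblet cell genes had a positive log2 fold change, knock-out over wild type, and none passed the test. The median was 0.67, where 51% of all 13991 genes tested were positive, with a median of 0.006. Benjamini-Hochberg adjusted p-values of the edgeR quasi-likelihood test called 0 of the 10 genes, each at an adjusted p of 0.957, and 0 of all genes (0%). At an unadjusted p under 0.05 it had 558 genes of all tested, DESeq2 called 1 gene and limma voom 0. Of the goblet cell genes, Agr2 and Ramp1 reached an unadjusted p under 0.05, both higher, against 2.44% of all genes higher and 1.55% lower. None of the 10 had groups that did not overlap, where 0.207% of all genes did so with knock-out above and 0.343% with knock-out below.

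Agr2 had 2427, 420.5, 792.3, 556 and 720.1 CPM in knock-out libraries 1 to 5, against 453, 307.9, 769.5, 459 and 336 CPM in wild-type libraries 1 to 5. Knock-out libraries 1 and 3 lay above all of wild type, and wild-type library 3 lay above the other 4 wild-type libraries. The means were 983.2 ± 819.9 CPM in knock-out, against 465 ± 183.3 CPM in wild type (SD, n = 5 each), giving a log2 fold change of 1.09 with an SE of 0.42 and an unadjusted p of 0.0213. It was 0.45 without knock-out library 1.

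Muc2 had 1023, 152.3, 280.9, 235 and 531 CPM in knock-out libraries 1 to 5, against 273, 148.3, 353.7, 338 and 311 CPM in wild-type libraries 1 to 5. Knock-out libraries 1 and 5 lay above wild type and the other 3 within it. The log2 fold change of 0.65 (SE 0.42) was 0.10 without knock-out library 1. Zg16 had 3444, 75.4, 482.4, 229 and 521.6 CPM in knock-out libraries 1 to 5, against 252, 43.3, 697.8, 251.4 and 200.3 CPM in wild-type libraries 1 to 5. It was the gene with the widest range in both genotypes, 45.7 times from lowest to highest library in knock-out and 16.1 times in wild type. Its log2 fold change of 1.72 (SE 0.85), the largest of the 10, was 0.21 without knock-out library 1.

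Tff3 had 2197, 361.1, 784.7, 531.4 and 524 CPM in knock-out libraries 1 to 5, against 286.5, 222.9, 1403, 344.8 and 263 CPM in wild-type libraries 1 to 5. All knock-out libraries lay above the wild-type libraries other than library 3, which lay above 4 of the 5 knock-out libraries. The log2 fold change of 0.82 (SE 0.56) was 0.16 without knock-out library 1 and 1.66 without wild-type library 3. Spink4 ranged from 398.2 to 1741 CPM in knock-out and from 190.8 to 1832 CPM in wild type, again with every knock-out library above the wild-type libraries other than library 3. Its log2 fold change was 0.50 (SE 0.60), and it was 1.65 without wild-type library 3 and -0.004 without knock-out library 1.

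Fcgbp ranged from 294.2 to 1510 CPM in knock-out and from 349.8 to 613.1 CPM in wild type, a log2 fold change of 0.49 (SE 0.39) that was -0.05 without knock-out library 1. Clca1 ranged from 116.7 to 302.1 CPM in knock-out and from 87.3 to 285.3 CPM in wild type, a log2 fold change of 0.47 (SE 0.32). It was 0.89 without wild-type library 3 and 0.26 without knock-out library 1. Spdef ranged from 12.2 to 21.6 CPM in knock-out and from 8.95 to 26.3 CPM in wild type, and of the 10 genes it was the steadiest among knock-out libraries, with 1.78 times between the lowest and the highest. In log2 the fold change was 0.33 (SE 0.28).

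Ramp1 (ENSMUSG00000034353, chromosome 1, 91179822 to 91225196, plus strand), the coreceptor through which the neuropeptide CGRP signals, had 20.7, 3.96, 6.73, 5.02 and 7.98 CPM in knock-out libraries 1 to 5, against 2.77, 3.79, 8.47, 3.88 and 2.92 CPM in wild-type libraries 1 to 5. All knock-out libraries lay above all wild-type libraries but library 3, from 60 to 271 counts in knock-out and 53 to 99 in wild type. The log2 fold change was 1.05 (SE 0.45) with an unadjusted p of 0.0347, and 0.47 without knock-out library 1. Sytl2 had 13.6, 5.08, 8.85, 5.61 and 13.5 CPM in knock-out libraries 1 to 5, against 5.60, 3.43, 4.70, 6.63 and 8.77 CPM in wild-type libraries 1 to 5. Knock-out libraries 1, 3 and 5 lay above all of wild type, and its log2 fold change was 0.69 (SE 0.34).

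**Figure D2:**
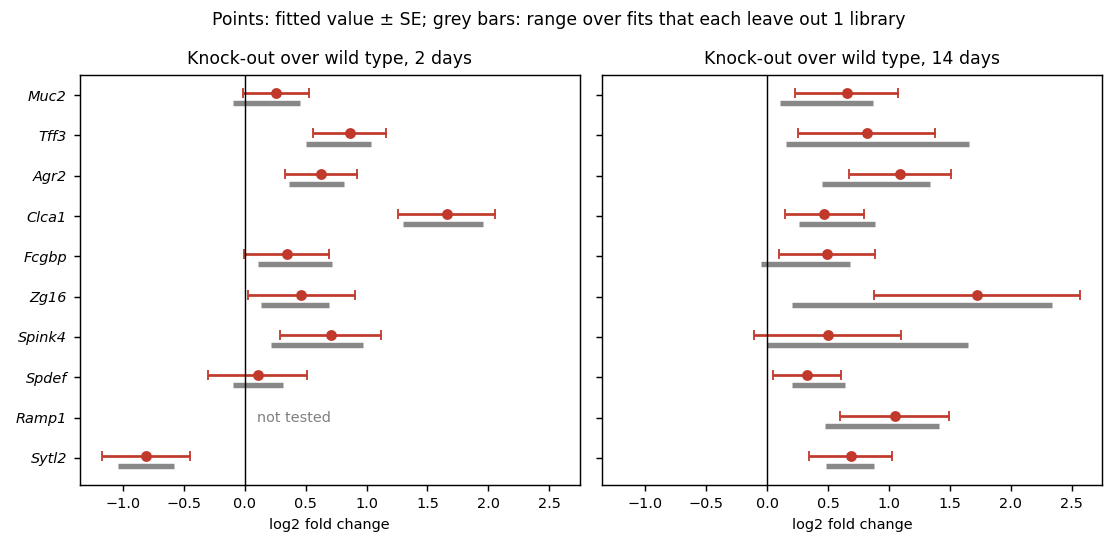
Log2 fold change of each goblet cell gene, knock-out over wild type, at 2 days (left) and 14 days (right). Red points with whiskers are fitted values ± SE and grey bars span the fits that each leave out 1 library. Ramp1 was not tested at 2 days. At 2 days Sytl2 alone lies below 0 and Clca1 lies highest at 1.66, at 14 days all 10 genes lie above 0, and the bars of Fcgbp and Spink4 at 14 days and of Muc2 and Spdef at 2 days reach 0 or less.

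The size of these values at 14 days turned on the pair of libraries that stood apart. Knock-out library 1 was the highest of the 10 libraries for 8 of the genes, and wild-type library 3 for the other 2. Without knock-out library 1 the log2 fold change was positive in 8 of 10 genes, with a median of 0.23. Leaving out knock-out library 5, it was positive in all 10, with a median of 0.58. Without wild-type library 3 it was positive in all 10, with a median of 1.11, and without both it was positive in 9, with a median of 0.66. The 14 day column names also carry a letter, B in 2 knock-out and 2 wild-type libraries and J in 3 of each, whose meaning the sources used here do not give. Among libraries with the letter J alone, which include wild-type library 3, 6 of 10 genes were positive, with a median of 0.12. Among those with the letter B alone, which include knock-out library 1, all 10 were positive, with a median of 1.66.

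**Figure D3:**
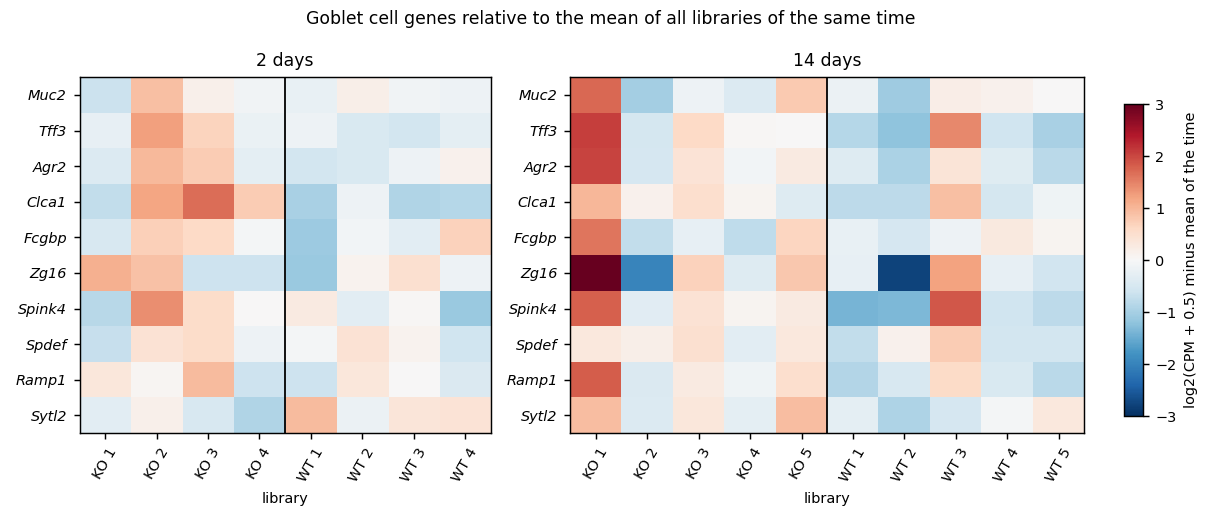
Log2(CPM + 0.5) of each goblet cell gene in each library minus the mean of all libraries of the same time, at 2 days (left) and 14 days (right), with knock-out (KO) left of wild type (WT). Red is above and blue below the mean, and the colours end at 3 on either side. At 14 days the columns of knock-out library 1 and wild-type library 3 are red for most genes, and at 2 days that of knock-out library 2 is red for most.

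Markers of other cell types were also high in this pair of libraries. The 20 Paneth cell markers summed to 3974 to 10290 CPM in knock-out, the highest in library 1, and to 3212 to 21730 CPM in wild type, the highest in library 3. The 20 enterocyte markers summed to 1875 to 5244 CPM in knock-out and 2145 to 7458 in wild type, and the 15 enteroendocrine markers to 235.9 to 707.4 CPM in knock-out and 168.2 to 435.9 in wild type, with the same 2 libraries at the top. The 14 tuft cell markers summed to 54.3 to 167.2 CPM in knock-out, against 33.5 to 149.8 CPM in wild type. The 15 stem cell markers summed to 2208 to 3072 CPM in knock-out, the lowest in library 1, and to 2482 to 3201 CPM in wild type. Of the Paneth markers with the highest levels, the defensin Defa24, whose reads may be shared with near-identical copies, averaged 2316 ± 474 CPM in knock-out, against 3015 ± 3586 CPM in wild type, and the lectin Reg3g 2132 ± 1708 and 1294 ± 1231 CPM (SD, n = 5 each). The hormone granule protein Chgb averaged 121.8 ± 13.9 CPM in knock-out, against 112.5 ± 76.3 CPM in wild type. Defa23 in both genotypes at 2 days and in knock-out at 14 days, and Gnat3 in knock-out at 14 days, were at 0. Fold changes of enterocyte markers were negative in 18 of 20, with a median of -0.37. Those of enteroendocrine markers were positive in 12 of 13 tested (median 0.42) and of tuft markers in 9 of 12 (median 0.41). Both thus lay mostly on the same side of 0 as the goblet cell genes. Paneth markers were positive in 7 of 18 (median -0.145) and stem cell markers in 8 of 15 (median 0.02). Of all genes tested 51% were positive. The 15 immune and 15 stromal markers summed to 735.8 to 1277 and 14.7 to 31.4 CPM in knock-out and to 367.9 to 1335 and 14.96 to 24.7 CPM in wild type. Again 1 gene made up most of the immune sum, and only 4 of the 15 immune markers passed the filter on low counts. The part of other cell types and of the mitochondrial share in the goblet cell values was not tested.

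Averaged over both times in 1 fit of all 18 libraries, the log2 fold change was positive in 9 of 10 genes, where 50.9% of all 15458 genes were. It was 1.05 (SE 0.28) for Clca1, 0.85 (SE 0.29) for Agr2, 0.83 (SE 0.37) for Tff3, 1.09 (SE 0.55) for Zg16 and 1.08 (SE 0.55) for Ramp1, and it was -0.07 (SE 0.26) for Sytl2. Without knock-out library 1 of 14 days it was 0.32 for Zg16, 0.49 for Tff3 and 0.52 for Agr2, with a median of 0.33 over the 10 genes, against 0.71 with every library. Without wild-type library 3 of 14 days it was 1.26 for Tff3 and 1.41 for Zg16, with a median of 1.08, while over all fits that leave out 1 library Clca1 stayed between 0.88 and 1.27 and Ramp1 between 0.73 and 1.53. None of the 10 was called in the edgeR quasi-likelihood test, where Benjamini-Hochberg adjusted p lay between 0.83 and 0.989, and 1 gene of all was called (0.00647%), with a negative value. Clca1, Agr2 and Tff3 had an unadjusted p under 0.05, where 3.24% of all genes were higher and 2.57% lower at that limit. With no filter on low counts, 35326 genes were tested and 40 called (0.113%), and 4 of them were goblet cell genes. These were Clca1, Agr2, Zg16 and Tff3, with adjusted p of 2.92e-06, 0.00222, 0.00285 and 0.00993 in that edgeR fit. Their log2 fold changes there, 1.05, 0.84, 1.09 and 0.83, were near those of the filtered fit. With the filter, DESeq2 gave adjusted p of 0.367, 0.585, 0.762 and 0.726, and limma voom 0.771 to 0.830. The low values rest on this 1 setting, and why they fell was not tested.

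The genotype effect of no goblet cell gene was called different between 14 days and 2 days, and 0 of all 15458 genes were (0%) by edgeR, with 13 by DESeq2, 0 by limma voom and 2.32% higher and 3.64% lower at an unadjusted p under 0.05. Sytl2 had the largest positive difference, 1.48 (SE 0.51, unadjusted p 0.00861, adjusted p 0.762 by edgeR), with log2 fold changes of 0.69 at 14 days and -0.81 at 2 days. Clca1 had a difference of -1.20 (SE 0.55, adjusted p 0.815 by edgeR), with 0.47 at 14 days and 1.66 at 2 days. Of the 10 genes 6 had a positive difference, where 48.9% of all genes had, and without knock-out library 1 of 14 days 2 had.

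In wild type, 7 of the 9 goblet cell genes other than Ramp1 rose at 14 days over 2 days, Sytl2 fell and Muc2 did not pass the test. Ramp1 passed the filter of this fit only through the 14 day libraries, so that it had to differ, and it is left out of these counts. These calls came from the edgeR quasi-likelihood test, adjusted by Benjamini-Hochberg, which also called 53.4% of all 15458 genes, 27.7% of them higher and 25.7% lower. The 2 times are separate tables and may be separate runs or cohorts, so time cannot be told apart from these. The 7 genes had no overlap between wild-type libraries of 14 days and 2 days, which held with 14 days above for 22.4% of all genes. The median log2 fold change of all genes was 0.121.

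Markers of other cell types moved between the same wild-type libraries. Of 15 stem cell markers, 11 were called lower at 14 days and 0 higher, the median log2 value being -1.63, and their sum was 2482 to 3201 CPM at 14 days and 6982 to 7667 CPM at 2 days. Lgr5 averaged 70.3 CPM at 14 days and 262.8 CPM at 2 days in wild type. Of 12 tuft cell markers tested, 7 were called higher and 0 lower (median 2.07), and their sum was 33.5 to 149.8 CPM at 14 days and 11.6 to 41.1 CPM at 2 days. Of 19 Paneth cell markers, 8 were called higher and 1 lower (median 1.26), of 20 enterocyte markers 7 higher and 3 lower (median 0.766), and of 13 enteroendocrine markers 3 higher and 1 lower (median 1.17). Of 6 immune markers 0 were called higher and 3 lower, and of 5 stromal and endothelial markers 1 higher and 0 lower. Over all genes of this fit 27.7% were called higher and 25.7% lower. In the 2 day libraries alone only 10 tuft, 11 enteroendocrine and 3 stromal and endothelial markers were tested. These counts may therefore hold genes that passed the filter only through the 14 day libraries, as Ramp1 did. The mitochondrial share was 6.21% to 26.3% in wild type at 14 days and 26.1% to 49.1% at 2 days. The part of these in the goblet cell values was not tested.

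Among the secreted proteins, Zg16 averaged 289 ± 244 CPM in wild type at 14 days and 18.3 ± 7.66 CPM in wild type at 2 days, a log2 fold change of 3.98 (SE 0.90). Spink4 averaged 568.4 ± 709.1 and 39.9 ± 14.7 CPM, a log2 fold change of 3.83 (SE 0.68), and Tff3 504.2 ± 504.7 and 47.8 ± 5.87 CPM, one of 3.40 (SE 0.59), at 14 and 2 days. Wild-type library 3 carried much of these means, and without it the log2 fold changes were 3.36, 2.66 and 2.55. Fcgbp averaged 473.9 ± 100.2 CPM at 14 days and 136.7 ± 68.7 CPM at 2 days, a log2 fold change of 1.79 (SE 0.43), and Clca1 140.8 ± 83.3 and 45.3 ± 13.4 CPM, one of 1.63 (SE 0.40). Muc2 averaged 284.9 ± 82.3 CPM at 14 days and 297.4 ± 38.7 CPM at 2 days, with a log2 fold change of -0.06 (SE 0.40), unlike the proteins it is secreted with. All SD are over 5 libraries at 14 days and 4 at 2 days. Adjusted p of these called genes ranged from 5.46e-05 for Tff3 to 0.00188 for Clca1 by edgeR.

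Agr2 averaged 465 ± 183.3 CPM in wild type at 14 days and 127.8 ± 28.2 CPM at 2 days, a log2 fold change of 1.86 (SE 0.43). Spdef, the maturation factor, averaged 14.6 ± 7.25 CPM at 14 days and 6.25 ± 1.93 CPM at 2 days, a log2 fold change of 1.21 (SE 0.35). Ramp1 averaged 4.37 ± 2.35 CPM at 14 days and 0.201 ± 0.212 CPM at 2 days, from 53 to 99 counts and 0 to 8 counts. Its log2 fold change of 4.44 (SE 0.87) depends on the prior count. Sytl2 averaged 5.82 ± 2.02 CPM at 14 days and 10.96 ± 3.64 CPM at 2 days, a log2 fold change of -0.91 (SE 0.36) with an adjusted p of 0.0372 by edgeR. That call was lost with RLE size factors (adjusted p 0.0513), with no filter (0.0535) and when wild-type library 1, 3 or 4 of 2 days or 1, 2 or 3 of 14 days was left out (0.0524 to 0.125).

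Fold changes between the times also differed by the exon length of the gene. In wild type at 14 days over 2 days, the median log2 fold change was 1.67 over genes with under 1 kb of exon, 1.07 from 1 to 2 kb, 0.38 from 2 to 4 kb, -0.23 from 4 to 8 kb and -0.54 over 8 kb. Tff3 (493 bases) and Spink4 (477 bases) are in the shortest class, Agr2 (1291 bases) and Zg16 (1257 bases) in the next, Clca1, Spdef and Ramp1 from 2 to 4 kb, Muc2 (7127 bases) from 4 to 8 kb and Fcgbp (10497 bases) and Sytl2 (13941 bases) in the longest. Of the other tested genes, Muc2, at -0.06, lay above the median of its class and Sytl2, at -0.91, below that of its own. The 7 genes that rose were picked as called higher in this same comparison. Their place above the class medians was therefore largely set by that choice, and nothing is drawn from it. Between genotypes the class medians at 14 days were 0.217, 0.178, 0.008, -0.028 and -0.022, from shortest to longest, and at 2 days 0.227, 0.174, 0.075, -0.03 and -0.094. The part of length in the goblet cell values was not tested.

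**Figure D4:**
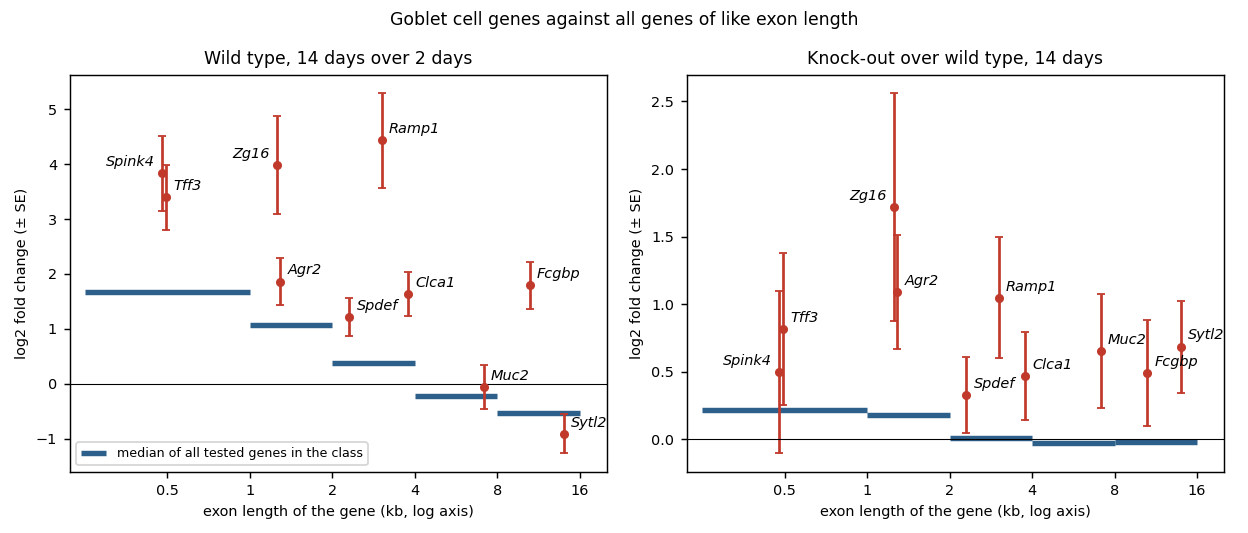
Log2 fold change ± SE of each goblet cell gene (red) against its exon length in kb on a log axis, for wild type at 14 days over 2 days (left) and for knock-out over wild type at 14 days (right). Blue lines are the medians of all tested genes in 5 length classes, the open end classes being drawn to the edge of the range shown. In the left panel the class medians fall with length, from 1.67 to -0.54, and Muc2 and Sytl2 lie near theirs.

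Relative to Muc2 of the same library, Tff3, Agr2 and Fcgbp were at a higher level at 14 days. The ratio of Tff3 to Muc2 counts was 0.846 to 3.97 in wild type at 14 days and 0.125 to 0.206 in wild type at 2 days. In knock-out it was 0.989 to 2.79 at 14 days and 0.186 to 0.280 at 2 days. The ratio of Agr2 to Muc2 was 1.08 to 2.18 in wild type at 14 days and 0.307 to 0.588 in wild type at 2 days, and that of Fcgbp to Muc2 was 1.28 to 2.36 and 0.251 to 0.823. None of these 3 ratios overlapped between the times in wild type, nor did those of Clca1, Zg16, Spink4 and Spdef, while that of Sytl2 did. The ratio to Muc2 lay above with no overlap for 20.4% of all genes. Between genotypes at 2 days, the ratio of Clca1 to Muc2 was 0.222 to 0.676 in knock-out and 0.134 to 0.185 in wild type, so that every knock-out library, library 1 included, lay above every wild-type library. That held for 0.269% of all genes, with 0.338% below, and the ratios of the other 7 goblet cell genes tested at 2 days overlapped, that of Tff3 at 0.186 to 0.280 in knock-out and 0.125 to 0.206 in wild type. Clca1 was picked out after its values were seen. At 14 days that ratio overlapped, at 0.220 to 1.09 in knock-out and 0.310 to 0.807 in wild type. The ratios were looked at after the values had been seen and carry no test.

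Per kb of exon, the order of levels was led by the small secreted peptides and Agr2. In knock-out at 14 days Tff3 stood at 1784 ± 1525 CPM per kb, Spink4 at 1657 ± 1135, Agr2 at 761.6 ± 635.1, Zg16 at 756.2 ± 1119, Fcgbp at 63.0 ± 49.0, Muc2 at 62.3 ± 49.5, Clca1 at 51.0 ± 18.8, Spdef at 7.77 ± 1.53, Ramp1 at 2.94 ± 2.24 and Sytl2 at 0.669 ± 0.295 CPM per kb (SD, n = 5). In wild type at 14 days the order was the same but for Spink4, at 1192 ± 1487, ahead of Tff3, at 1023 ± 1024 CPM per kb. Of the 9 neighbouring pairs in this order, only Clca1 over Spdef and Ramp1 over Sytl2 did not overlap in knock-out, and Spdef over Ramp1 as well in wild type. At 2 days the order in knock-out was Tff3 (175.6 ± 88.4 CPM per kb), Agr2, Spink4, Muc2, Clca1, Zg16, Fcgbp, Spdef, Sytl2 and Ramp1 (0.144 ± 0.137 CPM per kb). In wild type at 2 days it was Agr2 (99.0 ± 21.8 CPM per kb), Tff3 (96.9 ± 11.9), Spink4, Muc2, Zg16, Fcgbp, Clca1, Spdef, Sytl2 and Ramp1 (0.0665 ± 0.0702 CPM per kb). Clca1 ranked 5 in knock-out and 7 in wild type at 2 days, and it overlapped its neighbours in both but for Spdef below it in wild type.

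Other markers of goblet cells, 38 in all, were also mostly positive between genotypes. At 2 days 28 were tested, of which 20 had a positive log2 fold change, with a median of 0.29, and at 14 days 30 were tested, of which 24 were positive, with a median of 0.45. Of all genes tested 51% were positive at each time. None of these markers was called at either time. At 2 days Oit1 averaged 52.9 ± 13.5 CPM in knock-out, against 27.96 ± 7.13 CPM in wild type (SD, n = 4 each), giving a log2 fold change of 0.92 (SE 0.25), and Guca2a, the precursor of guanylin, 18.4 ± 9.56 and 9.22 ± 2.78 CPM, one of 0.996 (SE 0.39). Clca3b, of the Clca1 family, averaged 4432 ± 1123 CPM in knock-out, against 6422 ± 957.8 CPM in wild type, at 2 days. Its log2 fold change was -0.53 (SE 0.22), and it made up most of the summed level of this list at 2 days. In wild type at 14 days Clca3b averaged 842 ± 284.4 CPM, a fall shared with most stem cell markers and not with most of this list. Whether Clca3b marks goblet cells in these libraries was not tested. At 14 days the chemokine Ccl9 had a log2 fold change of 1.16 (SE 0.36), the secreted phospholipase Pla2g10 one of 1.48 (SE 0.57) and the tyrosine-degrading enzyme Hpd one of 0.64 (SE 0.28). In wild type at 14 days over 2 days, 17 of 30 were called higher and 3 lower, where 27.7% of all genes were higher and 25.7% lower, Guca2a with 3.61 (SE 0.57) and Clca3b with -2.93 (SE 0.26). As 28 were tested in the 2 day libraries alone, the 30 may hold genes that passed the filter only through the 14 day libraries.

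Of 17 fate factors of goblet and other secretory cells, 9 were positive at 2 days and 11 at 14 days. Their medians were 0.08 and 0.10, and none was called. For this list and those that follow, the share of positive values over all genes tested was 51% at each time. Atoh1, which starts the secretory fate, averaged 15.8 ± 6.23 CPM in knock-out, against 9.20 ± 1.35 CPM in wild type at 14 days (SD, n = 5 each), giving a log2 fold change of 0.79 (SE 0.26). At 2 days it averaged 5.83 ± 2.37 CPM in knock-out, against 7.84 ± 2.29 CPM in wild type (SD, n = 4 each), giving a log2 fold change of -0.43 (SE 0.40). The forkhead factor Foxa1 was at -0.64 (SE 0.27) and Foxa3 at 0.49 (SE 0.27) at 2 days, and at -0.11 (SE 0.14) and -0.30 (SE 0.29) at 14 days. The ETS factor Elf3 was at 0.34 (SE 0.21) at 2 days. The secretory factors Bhlha15 and Gfi1 were at 0.52 (SE 0.36) and 0.68 (SE 0.50) at 14 days. Gfi1 was low then, at 1.59 ± 0.270 CPM in knock-out, against 0.984 ± 0.689 CPM in wild type. Over time in wild type, 14 days over 2 days, 2 of the 17 were called higher and 4 lower, neither above the shares of all genes, 27.7% and 25.7%.

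Enzymes that build mucin sugars and mucin polymers, 26 of 33 tested at each time, had 10 positive at 2 days, with a median of -0.05, and 19 positive at 14 days, with a median of 0.06. None was called. C1galt1, which makes the core 1 sugar of mucins, was at -0.59 (SE 0.29) at 2 days and 0.59 (SE 0.26) at 14 days. The N-acetylglucosaminyltransferases B3gnt7 and B3gnt3 were at 0.84 (SE 0.42) and -0.34 (SE 0.18) at 2 days, and Galnt6, which adds the first sugar, and St6galnac6, a sialyltransferase, were at -0.28 (SE 0.14) and 1.32 (SE 0.70) at 14 days. In wild type at 14 days over 2 days, 7 of 27 were called higher, near the 27.7% of all genes, and 11 lower, where 25.7% of all genes were.

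Of the transmembrane mucins, which coat enterocytes rather than fill goblet granules, 3 of 5 tested were positive at 2 days and 1 of 6 at 14 days, with none called. Muc3 averaged 174.0 ± 56.6 CPM in knock-out, against 104.5 ± 12.7 CPM in wild type at 2 days (SD, n = 4 each), giving a log2 fold change of 0.74 (SE 0.24), and was at -0.22 (SE 0.30) at 14 days. Muc20 was at -0.92 (SE 0.61) and -0.98 (SE 0.64), and the mucin-like cadherin Cdhr5 at 0.31 (SE 0.22) and -0.35 (SE 0.21), at 2 and 14 days. Muc1 was at -0.65 (SE 0.73) at 14 days. Levels of Muc1 and Muc20 were low at 14 days. Muc1 averaged 0.684 ± 0.616 CPM in knock-out, against 1.07 ± 0.709 CPM in wild type, and Muc20 0.749 ± 0.616 and 1.46 ± 0.834 CPM. Between the times in wild type 1 of the 6 was called higher, Muc3, with 2.02 (SE 0.31), and 3 lower, against the same shares of all genes.

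For the release of granules, the partners of Sytl2 were in a list of 18 genes, of which 16 were tested at each time, 8 positive at 2 days and 9 at 14 days, none called. The granule SNARE Vamp8 averaged 58.6 ± 6.41 CPM in knock-out, against 42.0 ± 4.61 CPM in wild type at 2 days (SD, n = 4 each), giving a log2 fold change of 0.48 (SE 0.17). Rab27a, the small GTPase that Sytl2 binds, was at 1.003 (SE 0.36) at 14 days and -0.30 (SE 0.41) at 2 days. Rab27b was at 0.11 (SE 0.19) and -0.50 (SE 0.32), Sytl4 at 0.45 (SE 0.34) and -0.15 (SE 0.38), and the vesicle priming factor Unc13b at -0.15 (SE 0.19) and -0.26 (SE 0.20), at 14 and 2 days. In wild type at 14 days over 2 days, 4 of 17 were called higher and 4 lower, near those shares. Of 7 genes of the receptor complex that Ramp1 joins and its ligands, 2 were tested at each time, and neither was called. The ligand adrenomedullin, Adm, was at -0.76 (SE 0.32) at 14 days and -1.14 (SE 0.74) at 2 days, and the receptor component Crcp at 0.13 (SE 0.19) and -0.13 (SE 0.24).

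The genes whose pattern over the 18 libraries was most like that of the goblet cell genes were found among 8147 other genes with a mean log2 CPM of at least 3. Likeness was the root mean square difference, in SD units, between a gene standardized within each time and the mean of the 9 goblet cell genes tested at both times. The 6 nearest were Guca2a (0.359), the small nuclear RNA Rn7sk (0.459), the calcium-binding protein Nucb2 (0.522), Ccl9 (0.527), the respiratory subunit Ndufa7 (0.585) and the secreted lectin Reg4 (0.613). Guca2a averaged 215.7 ± 179.0 CPM in knock-out, against 112.3 ± 93.8 CPM in wild type at 14 days (SD, n = 5 each). Reg4 had log2 fold changes of 0.85 at 2 days and 0.62 at 14 days, Rn7sk 0.90 and 0.99, Nucb2 0.48 and 0.54, and Ndufa7 0.44 and 0.48. Of the goblet cell genes themselves Agr2 (0.335), Tff3 (0.367), Muc2 (0.427) and Spink4 (0.482) lay nearest their shared mean, of which each is a part, and Clca1 (0.627), Fcgbp (0.692), Spdef (0.809), Zg16 (0.815) and Sytl2 (1.06) lay farther away. These values describe libraries that share depth and cell content and carry no p.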

How the data were processed

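Poly(A) RNA of sorted intestinal stem cells was sequenced in 18 libraries of 4 groups. The values deposited by the authors are raw read counts per Ensembl gene, 1 table per time, with no normalization. STAR 2.4.2a, bcl2fastq 2.20.0.422 and the build GRCm38 are named in, and credited to, the submitters' processing notes. How reads were counted (tool, strand, annotation) is not given in the sources used here. No molecular identifiers are named, so counts include amplified copies. No annotated gene overlaps the exons of the 10 goblet cell genes. Library columns were assigned to groups by the start of their names, and no column was left over. No pair of libraries agreed within sampling noise (chi-square per degree of freedom of at least 27.6), and each was counted as 1 sample. By this measure knock-out library 5 of 14 days lay farthest from its group, at 511.8 to 636.6, against 30.3 to 97.9 without it. Wild-type library 3 of 14 days had 211 to 291.7, against 38.3 to 101.4 without it. Wild-type library 1 of 2 days had 328.2 to 374.5, against 27.6 to 45.1 without it.

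Symbols, coordinates and exon lengths came from GENCODE M21, which matched 42462 of 43432 identifiers. Each time was tested with edgeR 4.0.16 in R 4.3.3, with filterByExpr at a minimum count of 10, TMM and the quasi-likelihood F-test, two-sided, adjusted by Benjamini-Hochberg over all genes tested and called at an adjusted p under 0.05. The average over times, the difference between times and the wild-type time comparison came from 1 fit of all 18 libraries with 4 group means. SE was taken as the size of the log2 fold change over the square root of F. Printed CPM use TMM factors over all 18 libraries, so they can differ slightly from the fitted ratio within a time. The code was tested on simulated data with known answers. Alternatives were RLE size factors, no filter, a minimum count of 50, DESeq2 1.42.0, limma 3.58.1 voom, leaving out mitochondrially encoded genes, the joint fit and leaving out each library. The fits by column letter and the fit without a pair of libraries were chosen after seeing the data.

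The 10 genes and the 13 other lists were chosen with earlier results of these data known. Named from the lists that are not of other cell types were up to 3 genes of smallest p per time, and from the pattern search the 6 nearest genes. From each list of another cell type up to 2 genes of highest mean CPM were taken, beside Dlg1, Lgr5 and genes at 0. 1 such gene is not reported here.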

Additional observations from a re-analysis of the deposited data

Results flagged for a closer look

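Of 44 sets of values (a gene, or the summed level of the 10 genes, in 1 group of 4 or 5 libraries), 12 held a library farther from the rest than Dixon's critical value allows. Chance flags about 5% of sets of normal values. The sets share libraries, and the sum holds the genes, so 1 unusual library can flag many. The count of 12 is therefore given as a description and cannot be set against 5%. Of the 12, 11 came from a pair of 14 day libraries. In knock-out library 1 at 14 days these were Tff3 at 2197 CPM, with 784.7 CPM as the next highest of the group, Agr2 at 2427 CPM (next 792.3), Zg16 at 3444 CPM (next 521.6), Spink4 at 1741 CPM (next 675), Ramp1 at 20.66 CPM (next 7.98) and the summed level at 12700 CPM (next 3837). In wild-type library 3 at 14 days they were Tff3 at 1403 CPM (next 344.8), Clca1 at 285.3 CPM (next 138.1), Spink4 at 1832 CPM (next 331.6), Ramp1 at 8.467 CPM (next 3.88) and the summed level at 5834 CPM (next 2464). The 1 case at 2 days was Clca1 at 65.33 CPM in wild-type library 2, with 40.3 CPM as the next highest. Both 14 day libraries also had the highest mitochondrial share and the highest Paneth, enterocyte and enteroendocrine sums of their group, and the part of these was not tested.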

How the results depend on the processing

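No paired analysis was possible because the column names carry no replicate number of the labels. At 2 days the count of goblet cell genes called, 0, was 1 with DESeq2 (Clca1). For the average over times, 0 became 4 with no filter on low counts. For wild type over time, 9 genes were called, or 8 with RLE size factors or no filter, where the main fit called 53.4% of all genes. These counts hold Ramp1, which passed the filter of the main fit only through the 14 day libraries and had to differ. Leaving out 1 library at a time gave 8 or 9 for wild type over time, the lost gene being Sytl2, and 0 for each other comparison. The remaining alternatives gave the same counts for each comparison. Limma voom turned the difference between times, 14 days minus 2 days, to 0.15 for Tff3, -0.22 for Fcgbp and 0.33 for Spink4. Libraries with the letter J alone turned the 14 day log2 fold change to -0.095 for Tff3, -0.063 for Clca1, -0.057 for Fcgbp and -0.40 for Spink4, and leaving out knock-out library 1 and wild-type library 3 together turned Fcgbp to -0.087. The cause was not tested.

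Over fits that leave out 1 library, log2 fold changes that crossed 0 ranged from -0.095 to 0.45 for Muc2 and -0.10 to 0.31 for Spdef at 2 days, from -0.049 to 0.68 for Fcgbp and -0.004 to 1.65 for Spink4 at 14 days, from -0.18 to 0.047 for Sytl2 averaged over times and from -0.15 to 0.12 for Muc2 in wild type over time. The difference between times ranged from -0.18 to 0.75 for Muc2, -0.73 to 0.80 for Tff3, -0.20 to 0.73 for Agr2, -0.42 to 0.38 for Fcgbp, -0.29 to 1.88 for Zg16, -0.74 to 0.94 for Spink4, -0.0078 to 0.52 for Spdef and -1.001 to 0.61 for Ramp1. The median of all genes in wild type over time was 0.121, 0.175 with RLE size factors, 0.833 with no filter, 0.006 at a minimum count of 50 and 0.221 with limma voom, and the 7 genes that rose were called higher under each. Ramp1, with 0 to 15 counts per library at 2 days, failed the filter and was not tested between genotypes at that time.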
